A study of Solanum tuberosum with 72 samples.

Results

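The response of potato leaf to 3 h of salt was read from 6 arrays, 3 of salt-treated seedlings and 3 of unstressed controls, paired by replicate number. Its members are the spots with at least 2 values in each group, which makes 17679 of the 32448 spots on the array. A value on all 6 arrays was present for 14858 of them, 1931 lacked 1 value and 890 lacked 2. The remaining 14769 spots lay outside the comparison, and 10520 spots had no value on any of the 72 arrays of the study. A limma fit gave a test for 17676 members, and 3 had too few values for an estimate of error.

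The study exposed potato (Solanum tuberosum) seedlings to cold, heat or salt for 3, 9 and 27 h and measured RNA of roots and of aerial tissue, which the titles call leaf. Seedlings of the variety Gilroy, grown from true seed, floated on rafts over hydroponic medium for 5 weeks at 25 °C under long days. For the salt group the medium was exchanged for medium with NaCl, and for the control group it was exchanged in a similar way without salt. The salt dose is not settled, since one label field reads 100 mM NaCl and another 150 mM. A sample pooled 6 plants from 2 boxes, and the replicate numbers mark 3 independent runs of the whole experiment. On each array the Cy3 dye marked the sample and the Cy5 dye marked a pool of unstressed plants from 6 boxes, of the same tissue, time and experiment. No dye was swapped. The controls and the pool differ from the salt plants in the salt alone, as far as the labels say, and all groups had their medium changed.

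A value is a log2 ratio of the sample and its pool on one spot, and a change is the fitted difference of salt minus control, in log2 units. It equals the mean over the pairs where no salt or control value is missing. Where one is missing, it can depart from the mean over the measured pairs. The fit held a term for each reference pool, which pairs the arrays and is called the replicate block. No source used here says which dye was divided by which, so a positive change means only a higher ratio on salt arrays, and it may stand for more RNA or for less. The sign was not settled from known genes. For orientation, the 8 root spots of cab1, a chlorophyll-binding protein gene of the light-harvesting antenna, changed by -3.96 to -2.86 under 3 h of cold, and the root spots of StP2C, a gene for a type 2C protein phosphatase, by 2.72 and 2.76. Other values were mixed. The leaf spots of StP2C changed by -0.72 and -0.06 under 27 h of salt. Of 9 leaf spots of the co-chaperone dnaJ, 3 were negative under 3 h of cold. Because both channels hold the same tissue, the arrays give no level by which the leaf label could be checked against marker genes. In RNA from whole tissue, a change in the number of cells of one type and a change in RNA per cell cannot be told apart.

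Salt acts on a leaf first through water. Salt around the roots lowers the water available to the shoot, turgor falls, and the hormone abscisic acid and hydraulic signals reach the leaf within hours and close stomata. Sodium and chloride arrive with the transpiration stream later and are kept out of the cytosol by transport into the vacuole, while sugars, proline, dehydrins and chaperones help to keep proteins and membranes intact. Many of these early leaf genes also answer to cold and to drought.

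Spots were named by number, and a gene was named where the platform annotation gave a spot exactly 1 gene. Of the members, 1426 carried the name of 1 gene, together 402 genes, and 103 carried several names. The other members have no name here, so most of the largest changes are given by spot number. Most spots were printed as pairs of the same clone, and the partner is a second reading of the same RNA on the same array, not a further replicate. Over the 8366 pairs with both spots among the members, the partners' changes differed with an SD of 0.18.

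The arrays themselves were alike in coverage, with 17942 to 18546 measured spots and a median log2 ratio of 0 on each. On the control arrays 0.184%, 0.363% and 0.717% of spots in replicates 1, 2 and 3 lay 2-fold or more from the pool (0.421% ± 0.271, SD, n = 3). On the salt arrays the shares were 1.82%, 1.88% and 2.36% (2.02% ± 0.298, SD, n = 3). Every salt array lay above every control array, and the exact two-sided permutation p was 0.1, which no split of 6 arrays into equal groups can go below. Paired by replicate number the gaps were 1.63, 1.51 and 1.64 percentage points, and the exact test over the 8 sign flips gave a p of 0.25, the smallest that 3 pairs allow. Within pairs the excess lay on the positive side: 1.32%, 1.47% and 1.55% of spots had a ratio at least 2-fold higher on the salt array than on its control, and 0.214%, 0.719% and 0.228% one at least 2-fold lower. Spots with 3 values on one side and none on the other were few, 28 with salt values alone and 26 with control values alone. With 2 or 3 values on one side and 0 or 1 on the other there were more, 796 toward salt and 702 toward control. These lay outside the members.

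After 3 h of salt a small group of leaf spots stood apart, and nearly all of it was positive. At a limma adjusted p under 0.05, 198 of 17676 spots were called, or 1.12%, of which 181 were positive (1.02%) and 17 negative (0.0962%). An unadjusted p under 0.05 was found for 1814 spots. The median size of a called change was 1.12, and called changes ran from -1.10 to 3.56, while the median change over all tested spots was -0.01. A positive change of 2-fold or more was seen in 120 called spots and one of 4-fold or more in 17, while 3 called spots were 2-fold or more negative and none 4-fold. The difference had the same sign in every measured pair for all 198 called spots, 186 of which had values on all 6 arrays. The calls came from a fit to these same pairs, so the shared sign is no separate evidence. Of the 193 called spots whose partner was tested, 191 had a partner that changed in the same direction and 136 a partner that was called too. The calls came from 130 printed pairs or single spots, 117 of them positive and 13 negative. The count depended on single arrays: it was 92 without salt replicate 2 or without control replicate 2, 114 without salt replicate 3 or control replicate 3, 115 without control replicate 1 and 209 without salt replicate 1. Quantile scaling between arrays gave 472 calls, of which 71.8% were positive, against 91.4% of the 198.

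**Figure D1:**
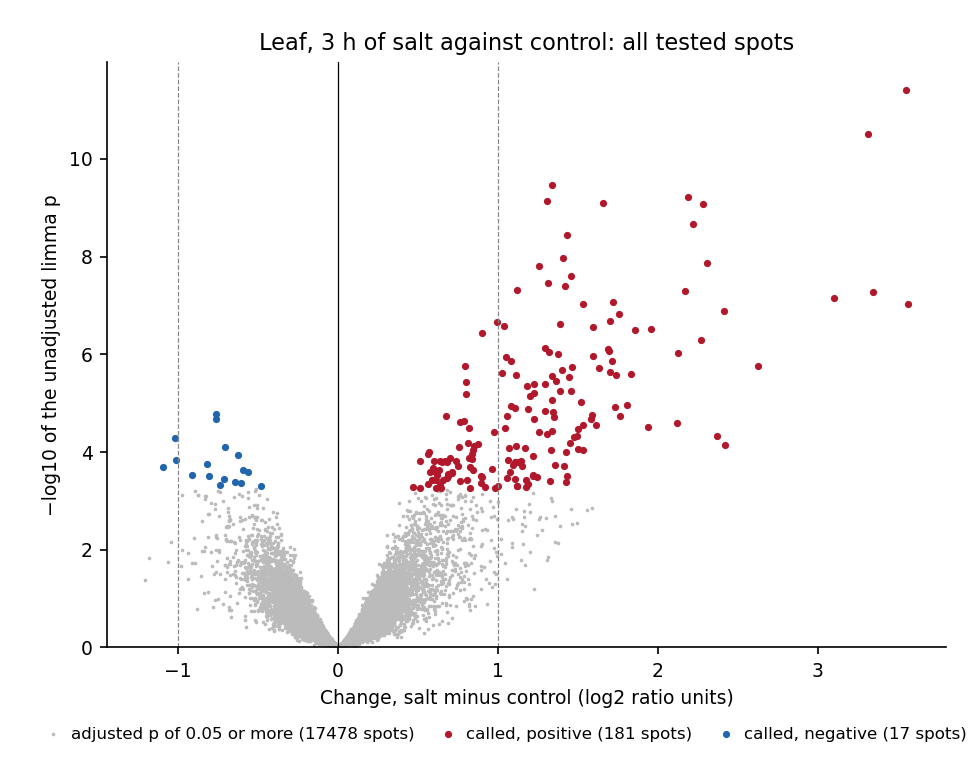
Each point is 1 of the 17676 tested spots, placed by its change after 3 h of salt (x axis, log2 ratio units) and by -log10 of its unadjusted limma p (y axis). The 181 positive calls reach 3.56 and the 17 negative calls reach -1.10; dashed lines mark a 2-fold change in each direction.

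The largest positive changes belonged to spots without a gene name. Spot 161885 read -0.29, -0.40 and 0.72 on the control arrays of replicates 1, 2 and 3 and 4.09, 2.86 and 3.12 on the salt arrays. The salt values lay far above all control values, a change of 3.34 (SE 0.36, limma adjusted p = 5.1e-05), and its partner, spot 162729, changed by 3.56. Spot 153617 read 0.47, -0.30 and -0.06 on control arrays and 3.56, 3.13 and 3.35 on salt arrays. Its salt arrays lay close together, far from the controls, and its change of 3.31 (SE 0.27, limma adjusted p = 2.7e-07) was seen again in its partner, spot 154461, at 3.55. Spot 141666, whose partner had too few values, read -0.14, -0.38 and 0.16 on control arrays and 2.44, 3.07 and 3.45 on salt arrays, a change of 3.10 (SE 0.32, limma adjusted p = 6.4e-05). These 3 spots passed the test in every alternative run, except that spot 141666 had a limma adjusted p of 0.13 with no replicate block.

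Other spots changed on all salt arrays but to an uneven degree. Spot 142983 read 0.36, -0.22 and -0.14 on control arrays and 1.04, 2.61 and 3.45 on salt arrays. Salt replicate 1 was the lowest of the 3 and still lay above the controls, and the change was 2.37 (SE 0.47, limma adjusted p = 0.0086), with 2.42 in its partner, spot 143827. That call was lost in 8 of 17 alternatives, among them the fits with no replicate block (limma adjusted p up to 0.32 over all alternatives). Spot 138223 read -0.49, -0.999 and -0.64 on control arrays and 1.07, 0.95 and 2.22 on salt arrays, with negative ratios on all controls and positive ones on all salt arrays. The change was 2.12 (SE 0.32, limma adjusted p = 4.4e-04) and the partner changed by 1.70. Spots 153557, 132624, 150963, 137106 and 132525 changed by 2.17, 2.12, 1.96, 1.81 and 1.76, all with no overlap between the groups. Of these 5, spot 132624 lost its call in 6 of 15 alternatives and spot 137106 in 3 of 17, while the other 3 kept theirs in all that were run.

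The negative side was small in number and in size. Spot 145784 read -0.18, -0.03 and -0.25 on control arrays and -0.94, -1.55 and -1.25 on salt arrays. The groups did not overlap, and the change of -1.10 (SE 0.25, limma adjusted p = 0.025) was close to that of its partner at -1.02. Spot 149461 read -0.07, -0.01 and -0.18 on control arrays and -0.86, -0.79 and -0.91 on salt arrays, a change of -0.76 (SE 0.14, limma adjusted p = 0.0040). Spot 131572, with control values from -0.13 to 0.11 and salt values from -0.86 to -0.71, also changed by -0.76 (SE 0.15, limma adjusted p = 0.0046). In both spots the groups were tight and did not overlap, and they lost their calls in 2 of 16 and 3 of 17 alternatives. Spots 146345, 163043, 146690 and 145012 changed by -1.01, -0.91, -0.81 and -0.74, with no overlap between groups, and each of them, like spot 145784, lost its call in 8 to 11 of its alternatives. Among these 20 spots, named from salt against control, the groups overlapped in spot 143817 alone. It read -0.18, 0.50 and 0.11 on control arrays and -1.09, 0.33 and -0.97 on salt arrays. Salt replicate 2 lay above 2 of the controls, its own paired control lay higher still, and the call (change -0.72, SE 0.17, limma adjusted p = 0.038) was lost in 11 of 17 alternatives.

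**Figure D2:**
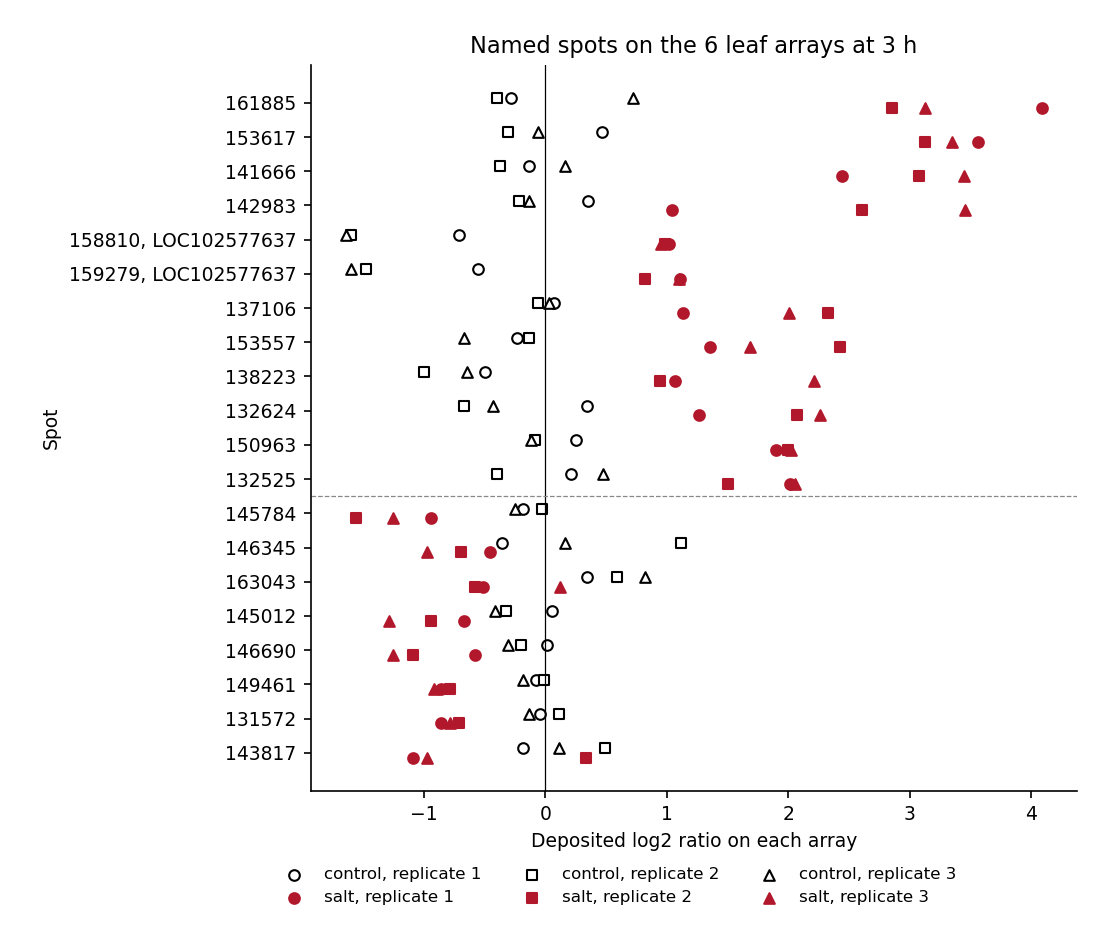
Deposited log2 ratios (x axis) of the 12 named positive spots (above the dashed line) and the 8 named negative spots (below it), with open symbols for the 3 control arrays and filled symbols for the 3 salt arrays. The salt arrays of each positive spot lie to the right of its controls; among the negative spots only 143817 overlaps.

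Among the 402 genes with a name, 12 had a called spot, 11 positive and 1 negative. Of the 1426 named spots tested, 25 were called, or 1.75%, against 1.12% of all tested spots. The 12 genes were tested on 61 spots in all. In 3 genes, LOC102577461, RSI5 and STUGE45, every tested spot was called. Only a minority of the calls could thus be read as genes, and for several of the 12 the annotation gives an identifier and no function.

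Of the genes with a name, LOC102577637 had the largest change. It was printed as 3 clones on 6 spots. On spot 158810 the control arrays read -0.71, -1.60 and -1.64 and the salt arrays 1.02, 0.99 and 0.96. On spot 159279, of another clone, the control arrays read -0.56, -1.47 and -1.60 and the salt arrays 1.11, 0.82 and 1.10. The salt arrays were nearly equal, the spread lay in the controls, and the control ratios were farther from 0 in replicates 2 and 3 than in replicate 1. On spot 158810 the mean was -1.32 on the control arrays and 0.99 on the salt arrays, so much of the change lay in the controls. The control means of this spot were closer to the pool at 9 and 27 h, at -0.50 and -0.46. The changes were 2.31 (SE 0.26, limma adjusted p = 2.2e-05) and 2.22 (SE 0.24, limma adjusted p = 4.7e-06), and both held in every alternative run. The partners changed by 2.41 and 2.28. The third clone had the same order of groups but smaller changes of 0.79 and 0.84, which did not pass the test (limma adjusted p = 0.20 and 0.12).

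A sugar nucleotide enzyme and a defence enzyme were among the named calls. STUGE45, a UDP-glucose 4-epimerase, which interconverts UDP-glucose and UDP-galactose for galactose-containing sugars and cell wall polymers, read 0.16, -0.25 and 0.12 on control arrays and 0.92, 1.82 and 1.30 on salt arrays of spot 158978. No control array reached the lowest salt array, and the change was 1.34 (SE 0.26, limma adjusted p = 0.0070), with 1.31 in its partner. The STUGE45 calls were lost in 4 of 17 and 5 of 15 alternatives. LOC102577835, annotated as the chitinase ChtA, a pathogenesis-related enzyme that cuts fungal cell wall chitin, had 4 spots of 2 clones with changes from 1.25 to 1.43, of which 2 passed the test. Its spot 133553 read 0.21, -1.15 and -0.81 on control arrays and 0.93, 0.57 and 1.04 on salt arrays. The groups did not overlap, with positive ratios on all salt arrays and negative ones on 2 of the controls. The change was 1.43 (SE 0.34, limma adjusted p = 0.034), and the calls of the 2 ChtA spots were lost in 9 of 16 and 11 of 17 alternatives.

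The named calls held a few regulators of transcription and growth. LOC102577613, annotated as StMYB1R-1, a MYB-type transcription factor linked in potato to drought tolerance, read -0.20, -0.07 and -0.18 on the control arrays of spot 149884 and 0.72, 0.90 and 0.20 on its salt arrays. All 3 salt arrays lay above the controls, replicate 3 by the least, and the change was 0.76 (SE 0.16, limma adjusted p = 0.013). Its partner changed by 0.68, just outside the threshold (limma adjusted p = 0.053), and the call of spot 149884 was lost in 6 of 16 alternatives. BEL5, a BEL1-type homeodomain transcription factor whose messenger RNA is known to move from potato leaves to stolons and promote tuber formation, had 2 clones. One clone changed by 0.56 (SE 0.12, limma adjusted p = 0.016) and 0.47 (limma adjusted p = 0.14), and the other by 0.13 and 0.22, neither past the test. The BEL5 call was lost in 9 of 16 alternatives. The single negative call was in LOC102577813, annotated as StEBP1, a homologue of a growth-regulating protein known in plants for its part in organ size. Its spot 136453 changed by -0.60 (SE 0.14, limma adjusted p = 0.028), but the partner of that spot read 0.19, the other 4 spots -0.26 to -0.08, and the call was lost in 12 of 16 alternatives.

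Further genes with a called spot have no function in the annotation used here. RSI5 read 0.28, -0.27 and -0.06 on the control arrays of spot 150266 and 1.75, 1.52 and 1.76 on its salt arrays, with a change of 1.69 (SE 0.26, limma adjusted p = 4.2e-04) and 1.58 in its partner. LOC102577461 read 0.12, -0.20 and 0.06 on the control arrays of spot 143045 and 1.45, 1.17 and 1.28 on its salt arrays, with a change of 1.31 (SE 0.13, limma adjusted p = 2.2e-06) and 1.25 in its partner. Both genes were steady across replicates, and of their 4 spots, 3 kept the call in all alternatives and spot 151110 of RSI5 lost it in 3 of 16. LOC102577612 had 3 of 4 spots called, with changes from 0.55 to 0.63 over 2 clones, and each call was lost in 10 or 11 of 16 or 17 alternatives. LOC102605230 had 1 of 3 spots called, with changes from 0.97 to 1.09, and lost that call in 7 of 14.

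In 2 further genes, as with the third clone of LOC102577637, clones under one name gave separate values. LOC102587499 was tested on 16 spots of 8 clones: the 8 spots of 4 clones changed by 1.06 to 1.33, 4 of them past the test, and the 8 spots of the other 4 clones changed by -0.46 to -0.06, none past it. Each of the 4 calls was lost in 9 or 10 alternatives. The positive clones read -1.43 to 0.12 on control arrays and 0.29 to 0.82 on salt arrays, with no overlap on any spot, and the other clones overlapped on every spot. LOC102598069 was tested on 10 spots of 5 clones, of which 1 clone changed by 0.62 and 0.64 with both spots called (lost in 8 of 16 and 9 of 17 alternatives), and the other 4 clones changed by -0.11 to -0.01. For these names the value of the gene depends on the clone. The 2 called spots with several names, 147502 and 148346, changed by 0.51 and 0.59.

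**Figure D3:**
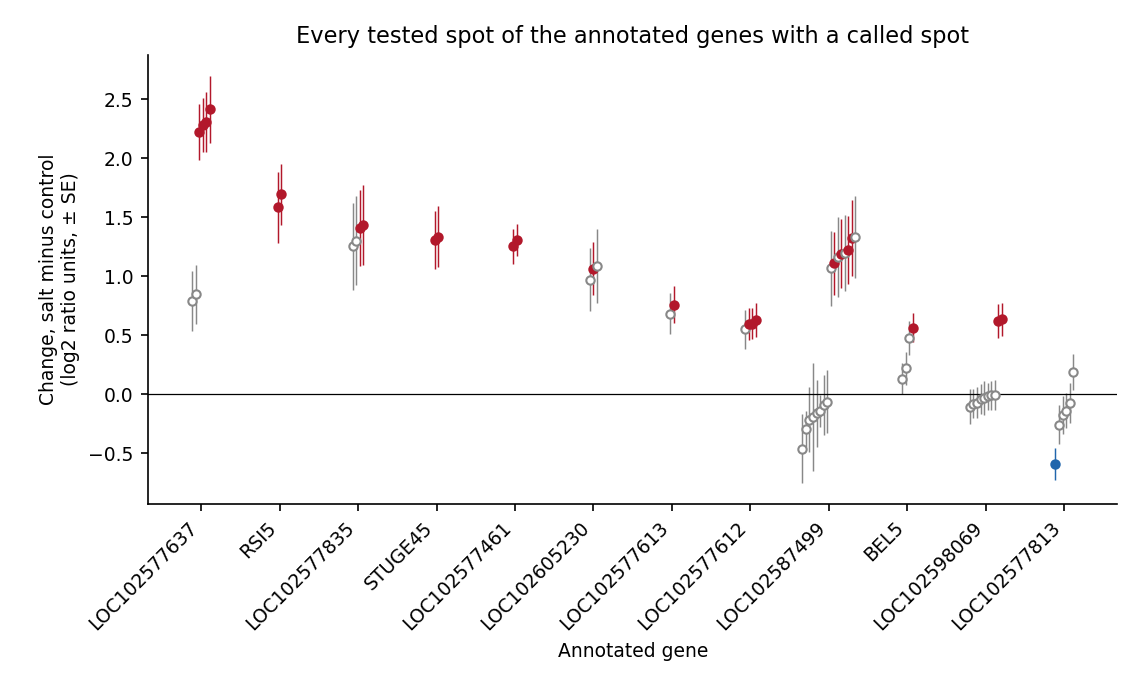
Change after 3 h of salt with its SE (y axis, log2 ratio units) for every tested spot of the 12 annotated genes with a called spot (x axis), filled in red or blue where called and open where not. LOC102577637, LOC102587499 and LOC102598069 show clones at separate levels; the single negative call is in LOC102577813.

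Genes from pathways known in salt stress were followed as lists. The lists held 37 genes with a name on the array, of which 30 could be tested, on 113 spots. Over them 4 spots were called, all positive, 2 of ChtA and 2 of STUGE45. This is 3.54% of the list spots, against 1.12% of all tested spots, and the median change was 0.10 against -0.01 over all spots. These lists were drawn up with earlier results of these data known, and nothing is read from their medians beyond the values.

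Among protective and transport proteins none of 36 tested spots passed the limma test, against 1.12% of all spots, and 3 had an unadjusted p under 0.05. So few spots allow no statement that these genes stand apart from the rest. The dehydrin and late embryogenesis list, proteins that protect other proteins as cells dry, was tested through a single gene, LOC102577657, annotated as Lea, with changes of -0.10 and 0.01. The plasma membrane proton pumps PHA1 and PHA2, whose gradient drives the export of sodium, ran from -0.27 to 0.22 over 10 spots. The aquaporin XIP1-1-BETA, of a class of water and solute channels, changed by 0.26 and 0.77. LOC102577512, annotated as the co-chaperone dnaJ, was positive on each of its 10 spots, from 0.15 to 0.40, and none passed the test. The antioxidant enzymes CAT1 (catalase) and DHAR and DHAR2 (which recycle ascorbate) ran from -0.17 to 0.18 over 12 spots. StP2C, the only listed protein phosphatase of the class that acts in abscisic acid signalling, had no spot with enough values.

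In the photosynthesis, defence and jasmonate lists ChtA alone had called spots. Of 30 spots of the photosynthesis genes 10 were tested, with a median of -0.16, and the 4 spots of LOC102603839, the oxygen-evolving protein psbP, changed by -0.24 to -0.07. PSBR, another photosystem subunit, ran from -0.19 to 0.77. PR1B, a pathogenesis-related protein, ran from -0.27 to 0.63, and the proteinase inhibitors, which block digestive enzymes of insects, from -0.55 to 0.92. LOC102596122, annotated as the lipoxygenase LOX2.1, which feeds fatty acid hydroperoxides to the jasmonate and volatile branches, changed by 0.03 to 0.26 on 8 spots. HPL, hydroperoxide lyase, which cuts those hydroperoxides into leaf aldehydes, changed by -0.02 to 0.10 on 4 spots. In sugar metabolism the sucrose synthase SS16 (also sus4), which splits sucrose to UDP-glucose, ran from -0.03 to 0.62, with its smallest limma adjusted p at 0.10, and STUGE51, a second epimerase, from 0.43 to 0.57 with its smallest at 0.52.

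**Figure D4:**
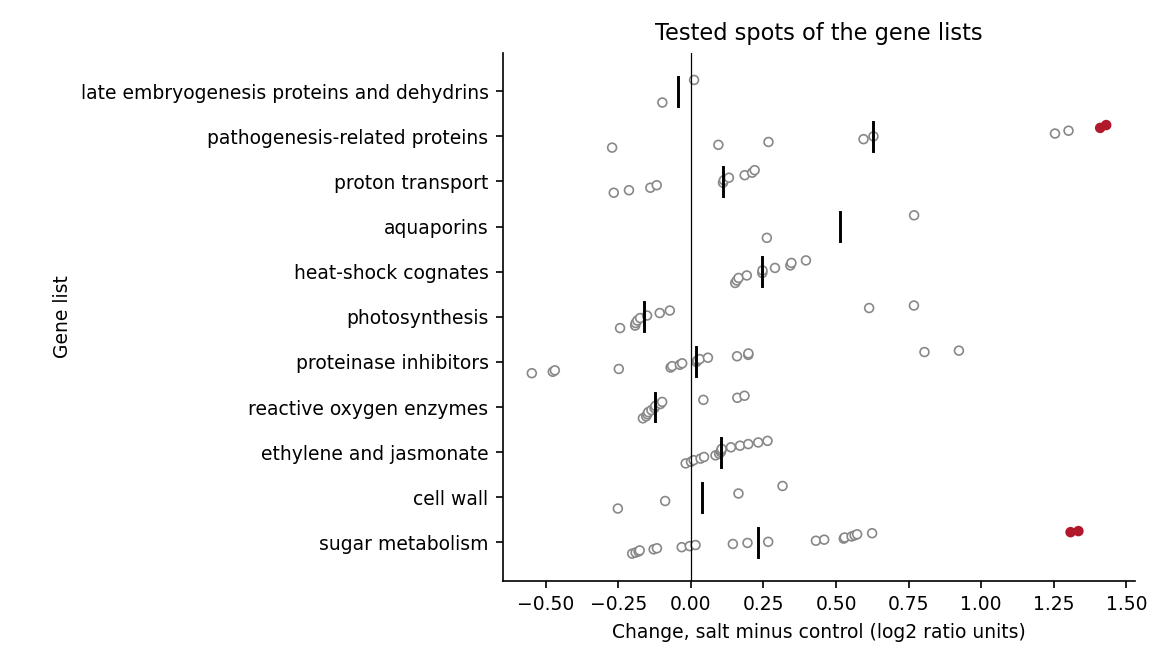
Change after 3 h of salt (x axis, log2 ratio units) for the 113 tested spots of the gene lists (y axis), filled where called and open where not, with a bar at the median of each list. The only filled points are the 2 ChtA spots at 1.41 and 1.43 and the 2 STUGE45 spots at 1.31 and 1.34.

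Most of the spots called at 3 h were called again at later times, which had their own plants, controls and pools. The estimate of error was not separate, since each spot was fitted over all leaf arrays together. A spot with a small error is thus favoured for a call at every time, which tends to raise the shares called again. At 9 h the same kind of fit called 1682 of 17650 spots (9.53%), 769 positive (4.36%) and 913 negative (5.17%), and at 27 h 2434 of 18615 (13.1%), 1164 positive (6.25%) and 1270 negative (6.82%). Of the positive 3 h calls 168 could be tested at 9 h, and 118 of them were called positive there and none negative. That is 70.2% of the 3 h list and 15.9% of the 741 positive 9 h calls that were tested at both times. At 27 h 156 of 177 were called positive and none negative, or 88.1% of the 3 h list and 13.9% of 1119 positive 27 h calls. Of the 17 negative spots 10 were called negative at 9 h and 14 at 27 h, which makes 1.12% of the 896 and 1.12% of the 1252 negative calls at those times.

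The direct test of 27 h against 3 h called few spots, which does not show that the responses were equal. Its median SE was 0.25, against 0.18 for salt against control, and 1733 spots had an unadjusted limma p under 0.05. At a limma adjusted p under 0.05, 60 of 17267 spots (0.347%) differed, 28 more positive and 32 more negative at 27 h. Of these, 47 were called at 27 h and not at 3 h and 13 at both times, with none called at 3 h alone. Among the 181 positive 3 h spots, 13 were more positive at 27 h, none more negative, 164 did not differ past the test and 4 were not tested. Their median change was 1.36 at 27 h and 1.19 at 3 h, over the 177 tested at both. The choice of these spots by their 3 h values tends to raise the 3 h median. The count of 60 depended on the scaling and on single arrays. It was 0 under quantile scaling, where 1786 spots had an unadjusted limma p under 0.05, and 16 with no replicate block. It was 1 without leaf salt 3 h replicate 1 and 2 without leaf salt 27 h replicate 2. It lay between 11 and 37 without any 1 of salt 3 h replicate 3, control 3 h replicates 2 and 3, salt 27 h replicate 3 and control 27 h replicates 1 and 2.

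Some spots that were positive at 3 h were larger still at later times. Spot 142983 changed by 2.37 at 3 h, 5.31 at 9 h and 5.64 at 27 h, and the difference between 27 h and 3 h was 3.27 (SE 0.67, limma adjusted p = 0.026). Spot 138223 changed by 2.12, 4.01 and 4.67 at these times, with a difference of 2.54 (SE 0.49, limma adjusted p = 0.018). These differences lost their calls in 15 of 23 and 11 of 22 alternatives. Not all large changes went on growing past the test. Spot 153617 changed by 3.31, 4.30 and 4.32, spot 132525 by 1.76, 2.04 and 2.06, and neither differed between 27 h and 3 h past the test (limma adjusted p = 0.40 and 0.84).

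Among the genes with a 3 h call and the listed genes, ChtA and HPL differed between the times. Spot 133553 of ChtA changed by 1.43 at 3 h and 3.61 at 27 h, a difference of 2.18 (SE 0.48, limma adjusted p = 0.043), and spot 142908 of its other clone by 1.41 and 3.50, a difference of 2.09 (limma adjusted p = 0.038). Both ChtA differences were lost in 16 of 22 or 23 alternatives. HPL was near 0 at 3 h and changed by 1.81 to 2.11 at 27 h, and the difference passed the test on all 4 spots (limma adjusted p from 0.011 to 0.049), though it was lost in 7 to 16 of the alternatives for each. The changes of LOX2.1 were 0.03 to 0.26 at 3 h and -1.23 to -1.03 at 27 h, where the smallest limma adjusted p was 0.016, but the difference between the times did not pass the test (smallest limma adjusted p = 0.26). The largest differences toward the negative by the naming rule were in spots 148005 and 145045, at of -2.02 (SE 0.35, limma adjusted p = 0.011) and -1.60 (SE 0.29, limma adjusted p = 0.015).

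**Figure D5:**
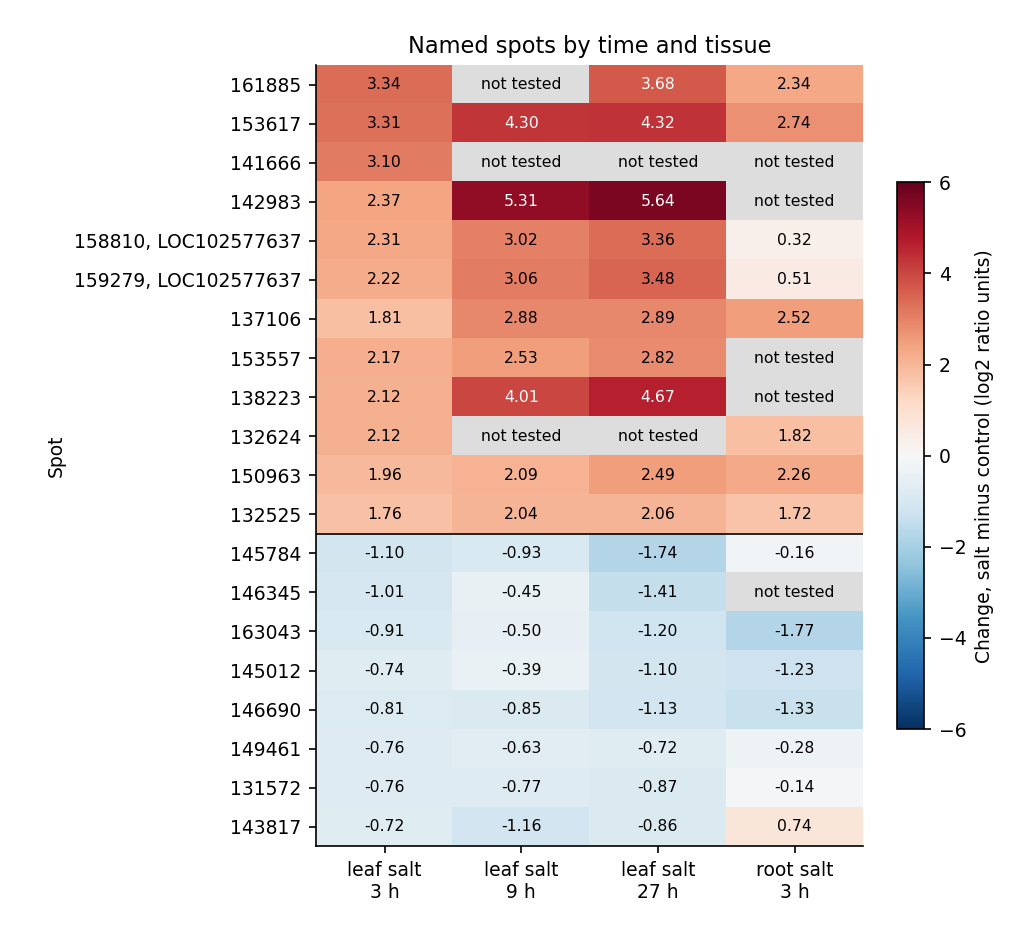
Change against the control of the same time and tissue (colour and number, log2 ratio units) for the 20 named spots (rows) after 3, 9 and 27 h of salt in leaf and after 3 h in root (columns), with grey where too few values were present. Spots 142983 and 138223 reach 5.64 and 4.67 at 27 h, LOC102577637 is at 0.32 and 0.51 in root, and 143817 is negative in leaf and positive in root.

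Root had more called spots at 3 h than leaf, for reasons that were not tested. There 3896 of 16276 spots were called (23.9%), 2132 positive (13.1%) and 1764 negative (10.8%), against controls and pools of their own. Of the positive leaf spots 160 could be tested in root, and 111 were called positive and 1 negative, or 69.4% of the leaf list and 5.54% of the 2003 positive root calls tested in both tissues. Of the negative leaf spots 5 of 15 were called negative in root and 1 positive, and these 5 are 0.300% of the 1668 negative root calls. The median change of the 160 positive spots was 1.14 in leaf and 0.83 in root. These spots were chosen by their leaf values, which tends to raise the leaf median. No difference between the tissues is read from these medians.

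The direct test of root against leaf called 525 of 15246 spots (3.44%), 274 more positive and 251 more negative in root. Of them 480 were called in root and not in leaf, 17 in leaf and not in root, 4 in both with the same sign, 2 in both with opposite signs and 22 in neither. Among the 160 positive leaf spots, 17 were more negative in root, 4 more positive and 139 did not differ past the test. The choice of these spots by their leaf values favours the negative side, so nothing is read from this split. The count of 525 was 264 with no replicate block. It was 182 without root control 3 h replicate 2, and between 236 and 347 without any 1 of leaf salt 3 h replicates 1 and 2 and the 3 leaf controls.

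LOC102577637 differed between the tissues. Its 4 leaf-called spots changed by 0.29 to 0.51 in root, where none passed the test, and the differences of root minus leaf on spots 158810 and 159279 were -1.98 (SE 0.38, limma adjusted p = 0.0023) and -1.72 (SE 0.35, limma adjusted p = 0.0038). On spot 158810 the control mean was -1.32 in leaf and -0.105 in root, and the salt mean 0.99 in leaf and 0.22 in root. The difference on this spot thus lay in the controls as well as in the salt arrays. Spot 143817 changed by -0.72 in leaf and 0.74 in root, with a difference of 1.46 (SE 0.31, limma adjusted p = 0.0060). Each of these 3 differences was lost in 2 alternatives. The root change of spot 143817 was near the threshold (limma adjusted p = 0.045). Its root controls read -0.62 and 0.556, with no value in replicate 2, and its root salt arrays 0.556, 0.566 and 0.978. In leaf its partner changed by -0.445 (limma adjusted p = 0.40). Among further spots followed singly, spot 136453 of StEBP1 was more positive in root than in leaf, by 1.01 (limma adjusted p = 0.0075). That difference was lost in 5 of 21 alternatives. Spots 133263, 139521 and 140365 of HPL were also more positive in root (limma adjusted p = 0.030, 0.048 and 0.041). The HPL differences were lost in 14 of 22, 17 of 21 and 15 of 21 alternatives. On 6 other spots no difference between the tissues passed the test. Spots 132525 and 150963 changed by 1.76 and 1.96 in leaf and by 1.72 and 2.26 in root, and STUGE45 and RSI5 by 1.31 to 1.69 in leaf and 2.05 to 2.41 in root. On these 6 spots the test found no difference, which does not show that root and leaf were equal. Spots 136759 and 148041 changed by 2.0 and 1.94 in root and by -0.20 and -0.12 in leaf, and spot 139931 by -2.94 in root and -0.18 in leaf. The differences of these 3 passed the test, with limma adjusted p up to 0.024. That of spot 139931 was lost in 11 of 23 alternatives, that of spot 148041 in 1 of 23 and that of spot 136759 in none. The root controls of spot 139931 were uneven, at 0.506, 0.475 and -1.643.

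Cold-treated seedlings had their medium exchanged for medium at 4 °C and stood on ice. Cold at 3 h shares its controls and pools with salt at 3 h, so only the direct contrast of the salt and cold arrays is used. It called 2000 of 17047 spots (11.7%), 825 with a higher ratio under salt and 1175 with a lower one. Of the 181 positive salt spots 25 had a higher ratio under salt than under cold, 14 a lower one, and 142 did not differ past the test, and no negative spot differed past the test. The 181 spots were chosen by the values of these same salt arrays, which favours a higher ratio under salt. Nothing is read from this split. The count of 2000 was 881 and 1142 without salt replicates 1 and 2, and 779 and 1310 without cold replicates 1 and 2. The called spots of LOC102577637 had a higher ratio under salt, on spot 158810 by 0.87 (SE 0.26, limma adjusted p = 0.030), and so was StMYB1R-1, by 0.61 on spot 149884 (SE 0.16, limma adjusted p = 0.013). RSI5 had a lower ratio under salt than under cold, with a difference of -1.33 on spot 150266 (SE 0.26, limma adjusted p = 0.0014). These calls were lost in 8 of 20, 5 of 19 and 2 of 20 alternatives. By the naming rule the largest differences were in spots with small changes under salt: spot 137341 had a ratio higher under salt by 2.77 and spot 152827 a lower one, at -3.05, with salt changes of 0.38 and -0.05.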

How the data were processed

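The deposited table of log2 ratios was made by the authors, who used limma per the submitters' processing notes. How the spots were scanned, background-corrected and normalized is not stated in what was read. The labels name a column kit in one field and phenol or trizol in another for RNA extraction. No values were rescaled. Each spot was fitted over the 36 leaf arrays (all 72 for the tissue contrast) with limma 3.58.1 in R 4.3.3, with group and reference pool as terms and Benjamini-Hochberg adjustment at 0.05. Figures used matplotlib 3.10.9. Same-numbered arrays share a pool and an experiment per the labels, and their deviations from the group means correlated (r = 0.19, 0.34 and 0.38), so the pool was kept as a block. The number of arrays limits the precision.

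Duplicate printing was inferred from the values and held for all 905 annotated accessions with 2 spots. All 1630 spots of 1 gene in the platform annotation matched RefSeq by gene ID. The 12 largest positive and 8 largest negative called spots with 6 values and 1 sign in all pairs are named, counting a pair once under its lower number, with 3 in each direction for the other contrasts, plus all annotated genes with a call and the listed genes. Not every spot taken by this rule in the other contrasts is described. The genes with a call, the clones within them and the remarks on HPL were chosen after their values were seen. Members and gene lists were chosen with earlier results of these data known. Alternatives changed the block, arrays, missing-value filter, scaling and duplicates, and left out replicates.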

Additional observations from a re-analysis of the deposited data

Results flagged for a closer look

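The salt response of leaf differed between 27 h and 3 h on 60 spots by the direct test, and the 3 h response differed between root and leaf on 525. Spots 142983 and 138223 were more positive at 27 h than at 3 h by 3.27 and 2.54. Both spots of LOC102577637 named above were less positive in root than in leaf (-1.98 on spot 158810 and -1.72 on spot 159279), and spot 143817 differed in the opposite direction, by 1.46. These entries rest on the difference itself, by limma with an adjusted p under 0.05.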

How the results depend on the processing

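No call of a spot that was followed singly changed sign in any alternative run. Salt against control gave 198 calls, 310 over the compared groups alone, 472 under quantile scaling, 109 with duplicate spots averaged, by construction over fewer rows, and 56 to 209 with replicates left out. With no replicate block it gave 134, of which 133 were among the 198. The contrast of 27 h with 3 h gave 60, 16 with no replicate block, 143 over the compared groups alone, 0 under quantile scaling, 36 with duplicates averaged and 0 to 60 with replicates left out, the 0 being without replicate 2, where 1028 spots had an unadjusted limma p under 0.05. Root minus leaf gave 525, 264 with no replicate block, 299 over the compared groups alone and 104 to 494 with replicates left out. Salt against cold gave 2000, 989 under quantile scaling, 1277 with duplicates averaged and 528 to 1914 with replicates left out. The gap between salt and control arrays in the share of spots beyond 2-fold was 1.60 percentage points, 5.46 beyond 1.5-fold and 1.43 to 1.75 with replicates left out. Their causes were not tested. For the spots followed singly in salt against control, 1030 of 1293 recomputed values kept their side of the threshold, 232 lost a call and 31 gained one. Calls were lost in 131 of 272 values for 27 h against 3 h, 116 of 400 for root against leaf and 193 of 659 for salt against cold. Scaling moved the median of all spots by under 0.03.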
